A study of Mus musculus with 2 samples.

Results

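Klf1, Klf3, Nfe2, Sox6, Zbtb7a, Bcl11a and Hemgn encode nuclear regulators of globin genes and of red cell maturation. Their transcripts were followed in G1E-ER-GATA-1 cells after knockdown of the corepressor ETO2 (gene Cbfa2t3). The members were taken by name: every non-control probe of the mouse array whose gene name was that of one of the 7 genes, which gave 7 of 27745 gene names and 18 of 41174 probes. Sox6 had 5 probes, Zbtb7a, Bcl11a and Hemgn had 3 each, Klf3 had 2, and Klf1 and Nfe2 had 1 each.

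These cells derive from G1E, a mouse erythroid line that lacks GATA-1, and express in its place a fusion of GATA-1 with the ligand-binding part of the oestrogen receptor, which β-estradiol switches on. The group with ETO2 siRNA and the group with control siRNA were both transfected and then held in β-estradiol for 24 h, so both carried active GATA-1. Each of 2 arrays set the green (Cy3) RNA of ETO2 siRNA cells against the red (Cy5) RNA of control siRNA cells, with no dye swap. A dye effect that belongs to a probe therefore cannot be told apart from a difference between the groups. The labels number the arrays as replicates and do not name separate cultures, so p-values measure the spread between these arrays, which may be technical. The labels call the cell type murine ES cells and the tissue erythroid, and give 1 line, not several clones.

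GATA-1 turns on the red cell programme together with a small set of partner factors. KLF1 is an activator that binds CACCC boxes in the promoters of the adult β-globin gene and many other red cell genes. KLF3 binds like boxes and represses them through the corepressor CtBP. NFE2 is the p45 subunit that pairs with small Maf proteins at globin enhancers. SOX6, BCL11A and ZBTB7A silence embryonic or fetal globin genes in adult red cells, and hemogen (Hemgn) is a nuclear protein of maturing blood cells. ETO2 is a repressor within TAL1 and GATA-1 complexes, so the comparison asks which of these regulators depend on it.

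A log2 ratio is the ETO2 siRNA signal over the control siRNA signal after background correction and loess normalization within each array. A normalized log2 signal of about 6 lies near background, and signals of different probes are not compared. The median spot gave 82.8 and 77.5 scanner units for ETO2 siRNA and 105 on both arrays for control, over local backgrounds of 44 to 47. The number of arrays limits the precision. The knockdown was read by 2 probes of Cbfa2t3, with log2 ratios of -0.42 ± 0.05 and -0.23 ± 0.0046 (SD, n = 2 arrays), or 74.6% and 85.6% of control. Both were called lower (adjusted p = 9.72e-05 and 0.0106, limma), as were 20.6% of all tested probes. These 2 probes were not read under other ways of processing. The counts of the marker lists below stand beside 18.3% higher and 22.2% lower among all 16615 genes. They were made under the reported processing only. Of 12 listed erythroid markers 11 were measured, and 9 of them were called higher and 1 lower. Only 7 of the 9 were unsaturated. Of 8 embryonic stem cell markers Pou5f1, Nanog, Sox2, Zfp42 and Dppa3 did not pass the filter. The other 3 were measured, with Sall4 (-0.28) and Utf1 (-0.23) lower and Dppa5a not past the threshold. Summed normalized signal of the erythroid list was 160697 and 153685 in control and 295720 and 300249 after ETO2 siRNA (arrays 1 and 2). These sums include Hba-a1, saturated in both channels, and Eraf, saturated in the control channel, so their change is no measured fold. Markers of mast cells, basophils and eosinophils (9 of 11 measured, 3 higher and 4 lower, Tpsb2 and Epx not measured) summed to 41393 and 43435 in control and to 21501 and 21590 after ETO2 siRNA. The granulocyte and macrophage list (8 of 13 measured, none higher and 3 lower) summed to 1273 and 1294 in control and to 973 and 1050 after ETO2 siRNA, and Elane, Itgam, Cebpe, Ngp and Adgre1 were not measured. The megakaryocyte list (9 of 10 measured, 3 higher and 2 lower) summed to 26003 and 29299 in control and to 25617 and 28007 after ETO2 siRNA, and the lymphocyte list (8 of 10 measured, 1 higher and 2 lower) to 1283 and 1337 and to 1257 and 1247. All these sums include the offset of 50 units that background correction adds to both channels of every gene. Tyrobp and Cd8a (ETO2 siRNA) and Csf3r (control) were well above background on only 1 array in that channel. Changes of the sums, above all in the dim granulocyte and lymphocyte lists, are therefore no measured folds. The part of these cell type differences in the results below was not tested, and in bulk RNA fewer cells of a type and less RNA per cell cannot be told apart.

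Transcripts are read here by designed 60-base probes, and probes of the same gene did not always move together. Stretches of 30 bases, 5′ to 3′, are shown for the probes on which the results turn, with a polyadenylation hexamer (AATAAA or ATTAAA, as read on the probe's strand) in capitals.
Hemgn A_51_P216049: tgtaacaacatcagaattttattcgagctt
Hemgn A_52_P427579: ggtgctttctctcaagattttacagaaatg
Sox6 A_52_P282171: gctctccataagctgtttaaggtactgcta
Sox6 A_52_P394652: gctgggaacgacatgattaatggagaggat
Nfe2 A_51_P515965: gaaccaaaatggaggctacagattgagctg
Klf1 A_51_P168630: aaggaccgtatcccaaaagatgagccatta
Bcl11a A_51_P262998: taacattgacatAATAAAtgttggagcttt
Bcl11a A_52_P82704: tttgaaagcttaATTAAAcacagtggctcc
Zbtb7a A_52_P107424: tcacaaaacagcAATAAAaccccaagattt
Zbtb7a A_52_P613808: ggacagtgatgaggagtcgcgaaccgacga
Zbtb7a A_52_P801875: ATTAAAaaacaaaagattatgaaaaatccg

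The hexamer AATAAA was present in 2 of the 18 probes and ATTAAA in 2 others, against 4.8% and 2.9% of all 41174 probes. All 4 were probes of Bcl11a or Zbtb7a. At least 1 of the 3 forward reading frames was free of stop codons in 13 of the 18 probes (72.2%), against 78.3% of all probes. Where each probe lies in its transcript was not analysed here.

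Of the 18 probes, 15 were well above background in at least 1 channel on both arrays and entered the test, and the 3 others were all Sox6 probes. Of the 15, 7 were higher after ETO2 siRNA, 1 was lower and 7 did not pass (limma, Benjamini-Hochberg adjusted p under 0.05 over 24471 probes). Among all tested probes 18.7% were higher and 20.6% lower, 39.3% together. With median centring in place of loess 4 of the 15 were higher and 8 lower, beside 3.02% and 63.1% of all probes. The median log2 ratio was 0.16 over the 15 probes and -0.01 over all. With 1 probe a gene, the brightest, Hemgn, Sox6, Nfe2 and Klf1 were higher (the last 2 were lower with median centring), Zbtb7a was lower, and Bcl11a and Klf3 did not pass, beside 18.3% higher and 22.2% lower (40.5% together) among 16615 genes. No probe of the 7 genes was saturated.

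**Figure D1:**
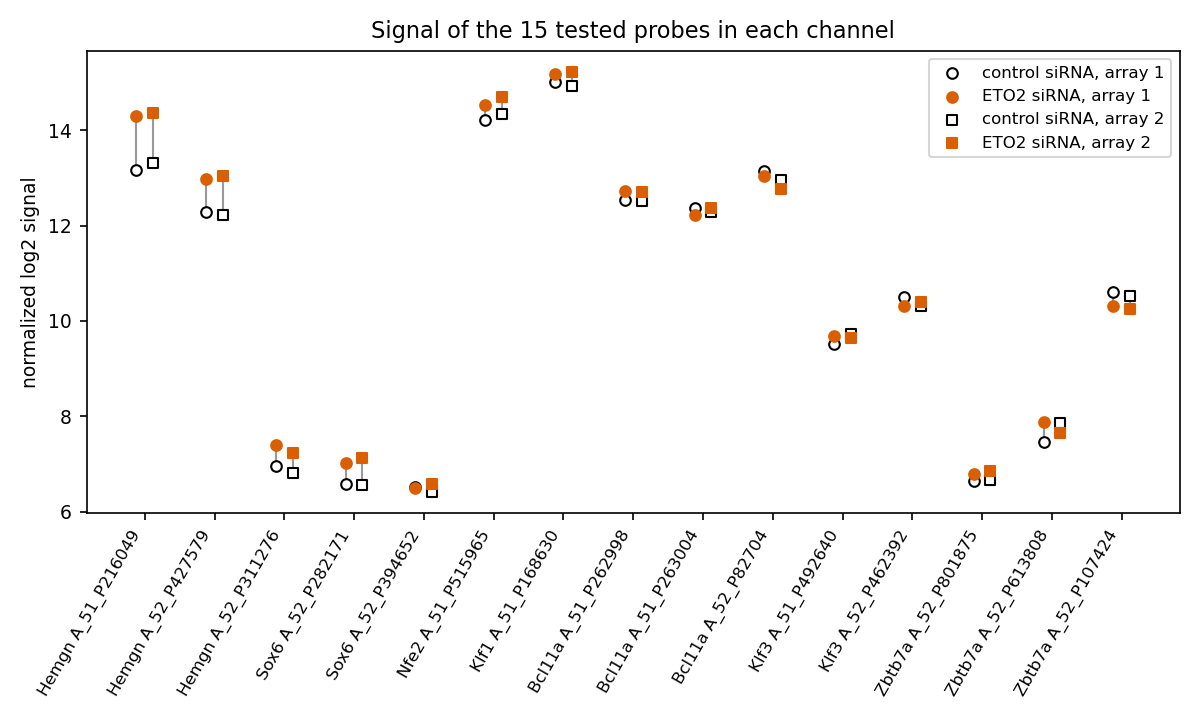
Normalized log2 signal (vertical axis) of the 15 tested probes in the control siRNA channel (open) and the ETO2 siRNA channel (filled) of array 1 (circles) and array 2 (squares), with a line joining the channels of an array. The 2 bright Hemgn probes show the widest gaps, with A_51_P216049 at 14.31 and 14.35 after ETO2 siRNA against 13.16 and 13.31 in control.

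Hemgn, the nuclear protein of maturing erythroblasts, rose on all 3 of its probes. On A_51_P216049 (NM_053149) the normalized log2 signal was 14.31 and 14.35 after ETO2 siRNA and 13.16 and 13.31 in control. Both ETO2 siRNA values lay above both control values. Such a comparison, made for other probes below too, sets values across arrays and leaves aside the pairing within an array. The share of all probes without overlap was not counted. The log2 ratio was 1.10 ± 0.07 (SD, n = 2), or 2.14-fold (adjusted p = 6.70e-09, limma), the ratio of rank 30 from the highest among 24471 tested probes.

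The second bright Hemgn probe, A_52_P427579, read 12.97 and 13.04 after ETO2 siRNA against 12.29 and 12.23 in control. The groups did not overlap, and the log2 ratio was 0.74 ± 0.09, or 1.67-fold (adjusted p = 5.01e-07). The dim probe A_52_P311276 read 7.39 and 7.24 against 6.95 and 6.82, with a log2 ratio of 0.43 ± 0.01 or 1.35-fold (adjusted p = 7.36e-05). Its spots measured 117 to 138 scanner units over backgrounds of 43.5 to 46. Normexp correction adds an offset of 50 units to both channels, and with offset 0 the log2 ratio was 0.70. The bright probes read 1.09 and 0.76 under that setting. Before normalization the spots of A_52_P427579 gave 6002 and 5944 scanner units for ETO2 siRNA against 6691 and 6788 in control. Those of A_51_P216049 gave 15001 and 14509 against 12361 and 14622. With median centring the 3 probes read 0.51, 0.20 and 0.28, all called higher, in the order A_51_P216049, A_52_P427579 and A_52_P311276. Among the members Hemgn had the largest ratio under the reported processing, while on the processed signals of the scanner software Sox6 A_52_P282171 (1.19) lay above it (0.93).

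**Figure D2:**
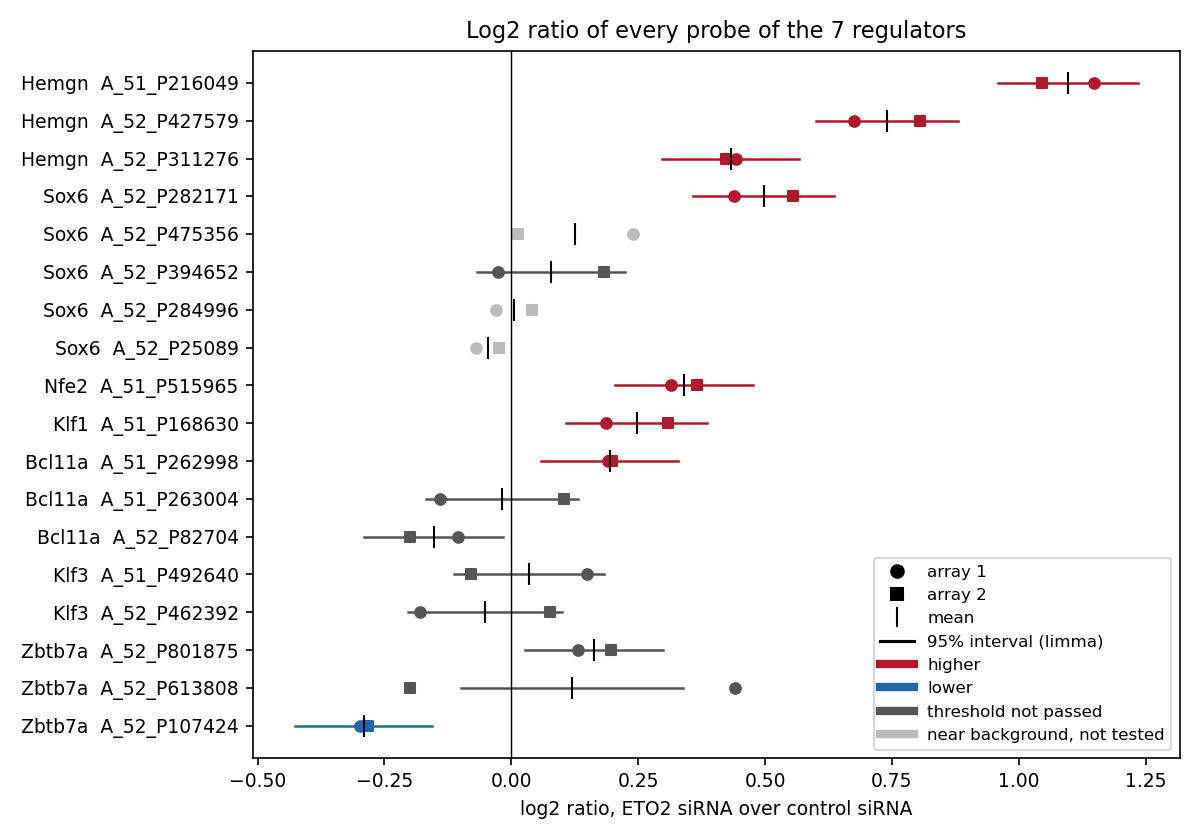
Log2 ratio of ETO2 siRNA over control siRNA (horizontal axis) for all 18 probes on array 1 (circles) and array 2 (squares), with the mean (tick) and limma's 95% interval (line); red probes were called higher, blue lower, dark grey did not pass and light grey were not tested. The Hemgn probes lie between 0.42 and 1.15 on both arrays, while the 3 Zbtb7a probes and the 3 Bcl11a probes spread to both sides of 0.

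Among activators, the gains were smaller. Nfe2, the p45 subunit of NF-E2, was read by a single bright probe (A_51_P515965, NM_008685). Its normalized log2 signal was 14.53 and 14.71 after ETO2 siRNA and 14.21 and 14.34 in control, without overlap. The log2 ratio of 0.34 ± 0.04 (SD, n = 2) amounts to 1.27-fold (adjusted p = 0.000595, limma).

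Klf1, the CACCC-binding activator of red cell genes, was also read by a single probe (A_51_P168630, NM_010635) and was the brightest spot of the set. Its normalized log2 signal was 15.19 and 15.23 after ETO2 siRNA and 15.01 and 14.92 in control. Both ETO2 siRNA values lay above both control values, by a log2 ratio of 0.19 on array 1 and 0.31 on array 2. The mean of 0.25 ± 0.09 is a 1.19-fold gain (adjusted p = 0.00709), with a 95% interval of 0.11 to 0.39.

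The gains of Nfe2 and Klf1 changed sign with the normalization of bright spots. Unnormalized control spots were brighter than ETO2 siRNA spots, at 45117 and 45731 scanner units against 27317 and 26052 for Klf1, and at 25799 and 30293 against 17348 and 18306 for Nfe2. Under median centring, which leaves the trend of the ratio with brightness in place and moved the median of all tested probes to -0.28, Klf1 read -0.39 and Nfe2 -0.27. Relative to that median the values were -0.10 and 0.01. On the scanner software's processed signals both stayed above 0, at 0.29 and 0.25, and did not pass (adjusted p = 0.0974 and 0.118). Klf1 also did not pass with offset 0 (0.21, adjusted p = 0.0870).

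Of the globin silencers, Sox6 was close to background. The probe A_52_P282171 (NM_011445) read 7.01 and 7.12 after ETO2 siRNA and 6.57 on both arrays in control. The groups did not overlap, and the log2 ratio was 0.50 ± 0.08 (SD, n = 2) or 1.41-fold (adjusted p = 2.55e-05). Its spots measured 108 and 110 scanner units against 99.1 and 102 in control, over backgrounds of 45 to 46.5. With offset 0 the log2 ratio was 0.91. On the processed signals, which differ in background subtraction and dye normalization too, it was 1.19.

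The other measured Sox6 probe, A_52_P394652, read 6.49 and 6.59 after ETO2 siRNA and 6.52 and 6.41 in control, so that the groups overlapped. Its log2 ratio of 0.08 did not pass (adjusted p = 0.392, 95% interval -0.07 to 0.22). The remaining Sox6 probes, A_52_P25089, A_52_P284996 and A_52_P475356, were not well above background in either channel on either array, with normalized log2 signals of 5.85 to 6.23. The Sox6 rise therefore stands on 1 of 5 probes.

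Bcl11a, the zinc finger silencer of fetal globin, was well measured on 3 probes, of which 1 passed the test. A_51_P262998 read 12.73 and 12.71 after ETO2 siRNA against 12.54 and 12.51, a log2 ratio of 0.19 ± 0.0055 (adjusted p = 0.0240). A_51_P263004 read 12.23 and 12.38 against 12.37 and 12.28, with overlap and a log2 ratio of -0.02. A_52_P82704, the brightest and the one that stands for the gene, read 13.03 and 12.76 against 13.14 and 12.96, with a log2 ratio of -0.15 ± 0.07 that did not pass (adjusted p = 0.0727).

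The single Bcl11a call was not stable. On the processed signals A_51_P262998 read 0.03 (adjusted p = 0.788), with offset 0 it read 0.21 without passing (adjusted p = 0.0786), and under median centring it read -0.34. The other 2 probes, A_51_P263004 and A_52_P82704, read 0.22 and 0.11 on the processed signals, where none of the 3 passed, and -0.54 and -0.70 under median centring, where all 3 were called lower. Relative to the median of all probes under median centring, A_51_P262998 read -0.06, A_51_P263004 -0.26 and A_52_P82704 -0.42. A_52_P82704 carries another transcript identifier (AK122557) than the other 2 probes (NM_016707), and whether the probes read different transcripts was not tested.

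Zbtb7a, the zinc finger factor also known as LRF, had the only lower call. Its brightest probe, A_52_P107424 (NM_010731), read 10.31 and 10.24 after ETO2 siRNA and 10.61 and 10.52 in control, without overlap. The log2 ratio was -0.29 ± 0.01 (SD, n = 2), which is 81.8% of control (adjusted p = 0.00192, limma). The sign was the same on the processed signals (-0.21), where the test was not passed (adjusted p = 0.140). With median centring this probe read -0.72 and was called lower, which is -0.44 relative to the median of all probes.

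The other Zbtb7a probes did not pass. The dim A_52_P801875 read 6.78 and 6.86 against 6.65 and 6.66, with a log2 ratio of 0.16 ± 0.05 that just missed the threshold (adjusted p = 0.0540) and passed it with offset 0 at 0.32 (adjusted p = 0.0193). A_52_P613808 was the least reproducible of the 15, with a log2 ratio of 0.44 on array 1 and -0.20 on array 2 (adjusted p = 0.384), and with median centring its mean was -0.12. When all 3 probes were averaged, the gene's log2 ratio was -0.0024 (adjusted p = 0.982). The Zbtb7a decrease is thus a reading of 1 probe.

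Klf3, the CtBP-dependent repressor, showed no difference that passed the test. The probe A_52_P462392 (NM_008453) read 10.32 and 10.40 after ETO2 siRNA and 10.50 and 10.32 in control. A_51_P492640 read 9.67 and 9.65 against 9.53 and 9.73. On both probes the groups overlapped and the 2 arrays had opposite signs. The log2 ratios were -0.05 and 0.04, with 95% intervals of -0.20 to 0.10 and -0.11 to 0.18 (adjusted p = 0.60 and 0.729). With median centring both were called lower, at -0.48 and -0.36, which is -0.20 and -0.07 relative to the median of all probes.

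**Figure D3:**
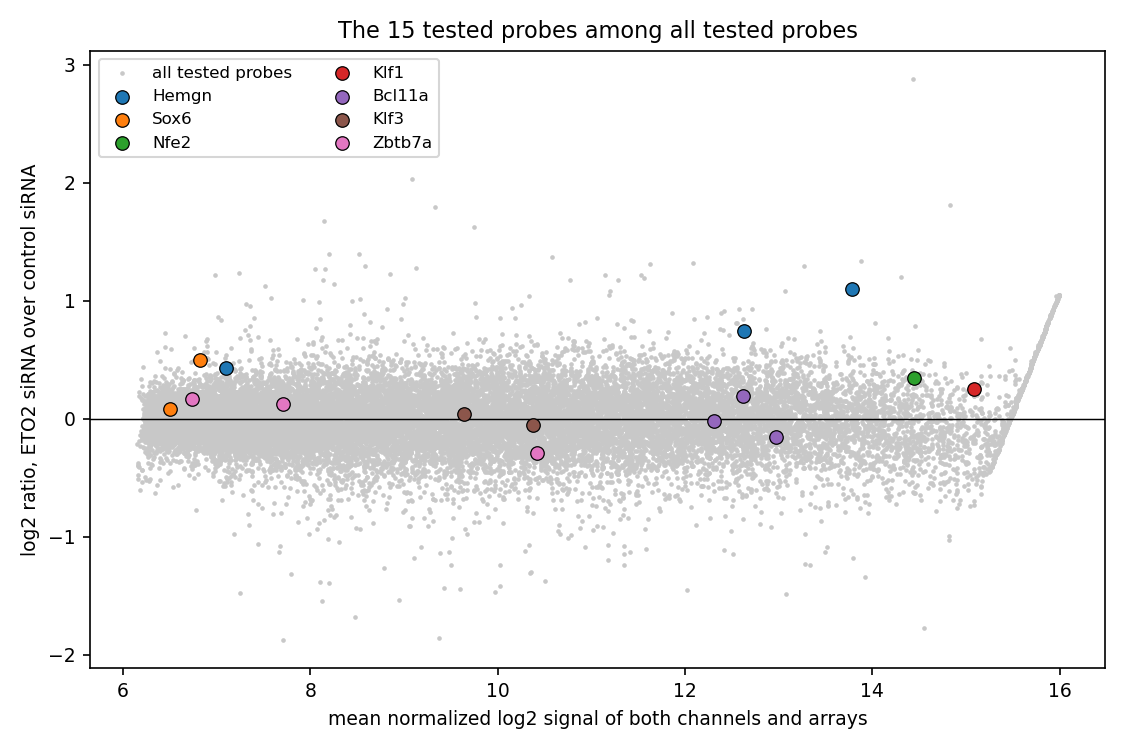
Log2 ratio (vertical axis) against mean normalized log2 signal of both channels and arrays (horizontal axis) for 24471 tested probes (grey), with the 15 probes of the 7 genes in colour. The 2 bright Hemgn probes stand above most probes of like brightness, Klf1 and Nfe2 lie at the bright end short of the rising edge of saturated spots, and the Klf3, Bcl11a and Zbtb7a probes lie within the grey band.

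Stretches of promoter are given for a called activator gene and for the members with the largest rise and the only fall, as the 250 bases before the annotated start (RefSeq, GRCm38.p6), with GATAA (the core of the GATA factor site) and CCACCC (the CACCC box of KLF factors) in capitals on either strand.
Hemgn, chr4:46404184-46404433, minus strand: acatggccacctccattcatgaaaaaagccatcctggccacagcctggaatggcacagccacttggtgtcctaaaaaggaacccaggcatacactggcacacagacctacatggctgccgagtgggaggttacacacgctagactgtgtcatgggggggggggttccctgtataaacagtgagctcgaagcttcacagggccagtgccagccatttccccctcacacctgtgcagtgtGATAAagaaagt
Klf1, chr8:84901732-84901981, plus strand: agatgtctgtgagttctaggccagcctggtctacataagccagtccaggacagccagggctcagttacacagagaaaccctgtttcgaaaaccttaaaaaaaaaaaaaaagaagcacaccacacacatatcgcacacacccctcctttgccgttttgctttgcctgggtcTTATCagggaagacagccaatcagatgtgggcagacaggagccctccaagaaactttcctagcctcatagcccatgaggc
Zbtb7a, chr10:81136021-81136270, plus strand: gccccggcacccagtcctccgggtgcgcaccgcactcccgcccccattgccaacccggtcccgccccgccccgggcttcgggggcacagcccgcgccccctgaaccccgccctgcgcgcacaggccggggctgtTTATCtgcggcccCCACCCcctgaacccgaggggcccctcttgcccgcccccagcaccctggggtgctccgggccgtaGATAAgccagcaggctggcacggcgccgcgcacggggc

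GATAA was found once in the Klf1 window, 80 bases before the start, and once in the Hemgn window, 12 bases before it. The Zbtb7a window held 2, starting 116 and 38 bases before the start, both within the longer AGATAA. The letters GATAA occurs on either strand in 22.6% of 32851 promoter windows of the same length and CCACCC in 28.1%. Klf3 had 3 CCACCC matches and Bcl11a 1, with no GATAA in either window. The Zbtb7a window held 1 CCACCC, 103 bases before the start, beside its GATAA matches. Of the 6 Sox6 windows, 2 held GATAA and none CCACCC. Matches of letters are descriptions of these windows, found in the gene that was lower as in those that were higher. The E-box letters CANNTG occurred in 66.2% of windows and in all of these except that of Zbtb7a, and the NF-E2 type motif TGANTCA, in 6.7% of windows, occurred in none of them. Nfe2 had no entry among the windows used.

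Relatives and partners of the 7 factors were described with 1 probe a gene, against a median log2 ratio of -0.02 over all 16615 genes. Of all genes 18.3% were higher and 22.2% lower. With median centring 471 of the 16615 were higher and 10807 lower, around a median of -0.31, and on the processed signals 1110 and 1180. The counts of each list below stand beside these. In the family of KLF and Sp factors, which share the zinc finger type of KLF1 and KLF3, 14 of 17 listed genes were measured, 2 were higher and 6 lower, with a median of -0.14. Klf6 (-0.85 ± 0.098, SD, n = 2), Klf13 (-0.50) and Klf9 (-0.40) fell, and Klf11 (0.34) and Klf16 (0.19) rose. With median centring none of the 14 was higher and 9 were lower, and on the processed signals 3 were lower. Klf8, another known KLF1 target, read -0.14 without passing.

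Known target genes of KLF1 include globins and membrane skeleton proteins. Of 28 listed genes 26 were measured, of which 15 were higher, 4 lower and 7 not past the threshold. The median log2 ratio was 0.40. Of the 15, 3 were saturated in the control channel on both arrays and have no measured fold, Hba-a1 and Eraf among them. Slc4a1 (band 3, 2.88 ± 0.07), Slc25a37 (mitoferrin, 1.81 ± 0.01) and Epb42 (a band 3 partner, 1.39 ± 0.29) rose most, and the transferrin receptor Tfr2 (-0.53), the cell cycle factor E2f2 (-0.52) and the adhesion receptor Cd44 (-0.37) fell most. Klf3 and Bcl11a, which are members of this list as well, were among the 7 that did not pass. The list was written with earlier results of these data known, and it overlaps the erythroid marker list. With median centring 8 were higher and 11 lower, beside 471 and 10807 of all 16615 genes. On the processed signals 14 were higher and 2 lower, beside 1110 and 1180 of all genes.

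**Figure D4:**
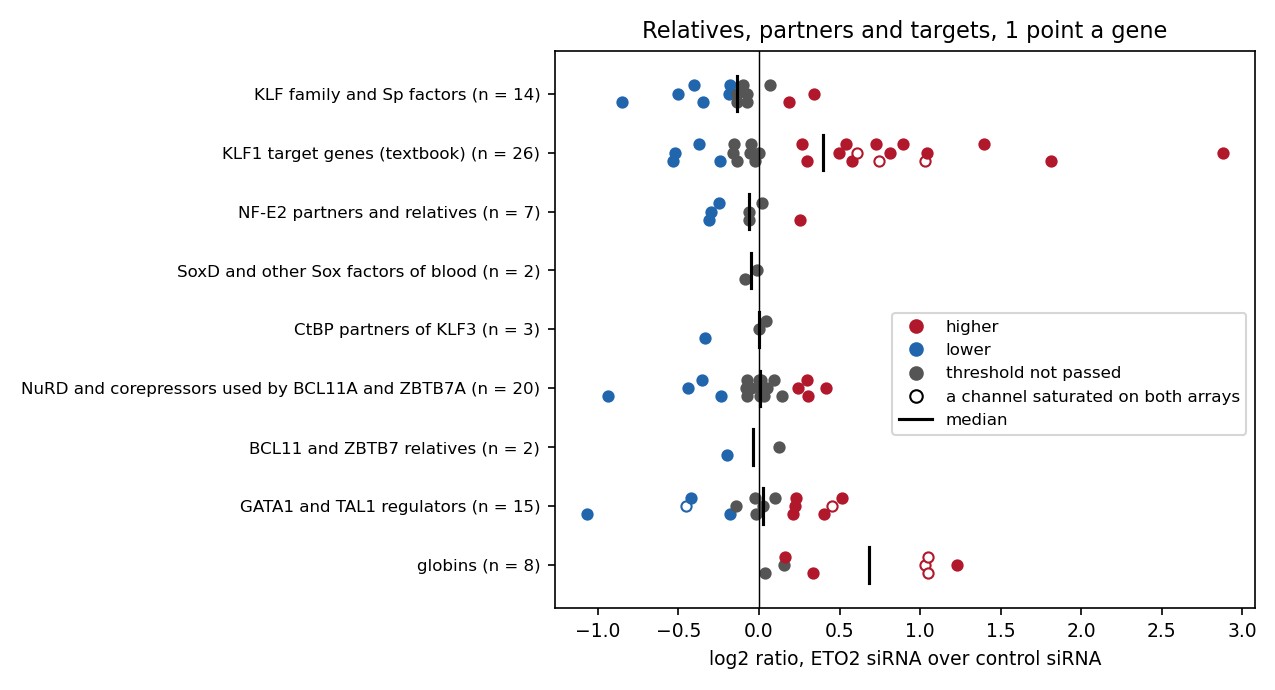
Log2 ratio (horizontal axis) of each measured gene in the lists of relatives, partners and targets, with the list median as a bar; red and blue points passed the test, and open points had a channel saturated on both arrays, so that their position is no measured fold. KLF1 targets reach from -0.53 to 2.88 around a median of 0.40. The KLF family and the partners of NFE2, KLF3, BCL11A and ZBTB7A have medians between -0.14 and 0.01. With median centring 11 KLF1 targets were lower and 8 higher, beside 10807 lower and 471 higher of all 16615 genes.

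NFE2 binds DNA with a small Maf protein and competes with the Bach repressors. Of 8 partners and relatives 7 were measured, 1 was higher and 3 lower, with a median of -0.06. Mafg rose (0.25 ± 0.01), Mafk (-0.06) and Maff (-0.06) did not pass, and the repressor Bach1 fell (-0.31 ± 0.36), as did Nfe2l1 (-0.30) and Nfe2l3 (-0.25). The 2 arrays differed widely for Bach1. On the processed signals none of the 7 was called in either direction, and with median centring all 7 were lower.

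The corepressor CtBP that KLF3 recruits showed no difference that passed: Ctbp1 read 0.04 and Ctbp2 -0.0008, and the KLF3-binding protein Fhl3 fell (-0.33). With median centring all 3 were lower, and on the processed signals none was. Of 20 subunits of NuRD and other corepressors used by BCL11A and ZBTB7A, 4 were higher and 4 lower, and 12 missed the threshold. The list median was 0.01. Chd3 (-0.93 ± 0.15), the methyl-CpG binding protein Mbd2 (-0.44) and Rcor1 (-0.35) fell, and the deacetylase Hdac2 (0.42), Mbd3 (0.30) and Mta1 (0.30) rose. None of the 20 was higher and 17 were lower with median centring, where 10807 of all 16615 genes were lower. On the processed signals 1 of the 20 was lower. Zbtb7b, a paralogue of Zbtb7a, fell (-0.20), and Zbtb7c (0.13) did not pass. Both were lower with median centring, and neither was called on the processed signals. Among other Sox factors 2 of 8 were measured, Sox12 (-0.01) and Sox17 (-0.08), and neither passed.

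In the list of GATA-1 and TAL1 regulators 6 of 15 were higher and 4 lower, with a median of 0.02. Epor (0.51) and Tal1 (0.40) rose, and Gata2 (-1.07) and Cbfa2t3 fell. Gfi1b was called lower and Zfpm1 higher, but the control spots of both were saturated, so neither has a measured fold. With median centring 13 of the 15 were lower, and on the processed signals 2 were higher and 2 lower. Of the globins, 6 of 8 measured genes were above 0 past the threshold and none below, but no fold was measured for Hba-a1, Hba-a2 and Hbb-bt, whose spots were saturated throughout. The embryonic Hba-x rose by a log2 ratio of 1.23 ± 0.19, Hbq1a by 0.34 and the embryonic Hbb-y by 0.16 (adjusted p = 0.0473 for Hbb-y, limma). The embryonic Hbb-bh1 read 0.04 ± 0.05 and did not pass (adjusted p = 0.661, limma). With median centring 4 globins were higher and 3 lower, and on the processed signals 6 were higher and 0 lower.

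**Figure D5:**
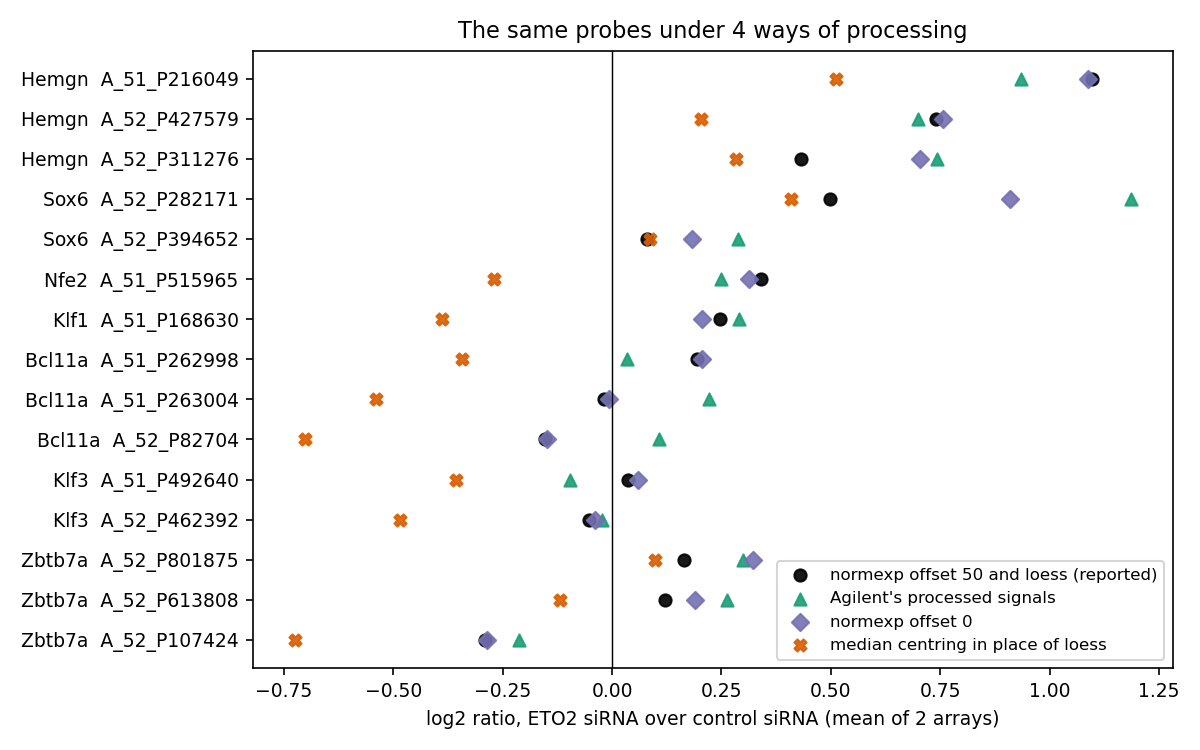
Log2 ratio, mean of 2 arrays (horizontal axis), of the 15 tested probes under the reported processing (circles), the scanner software's processed signals (triangles), normexp with offset 0 (diamonds) and median centring in place of loess (crosses). The Hemgn probes and Sox6 A_52_P282171 stay above 0 under these 4 settings, whereas Klf1 and Nfe2 move to -0.39 and -0.27 under median centring.

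The plot of settings shows how far the calls of the members held. Hemgn (3 probes) and Sox6 (A_52_P282171) were called higher under the reported processing, the processed signals, offset 0 and median centring alike. Klf1, Nfe2 and the Zbtb7a probe A_52_P107424 kept their sign on the processed signals and lost the call. With offset 0 and with median centring this Zbtb7a probe was again called lower (-0.29 and -0.72). Klf1 and Nfe2 changed sign with median centring. Across the 2 arrays, 10 of the 15 probes had the same sign on both, among them all 8 called probes. Of all 24471 tested probes 78.8% had the same sign on both, as did 9605 of the 9618 called.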

How the data were processed

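RNA of G1E-ER-GATA-1 cells was hybridised to 2 dual-colour Agilent arrays, with 1.2 µg total RNA for each dye per the labels' protocols. The authors deposited linear intensity values of spots and local backgrounds from Agilent Feature Extraction (9.1.3.1, per the file headers), before normalization. Processed intensity columns in the same deposited files were background-subtracted and dye-normalized by the scanner software. Its log10 ratio, red over green, is also in the deposited value table, where it differed by no more than 0.6%. Other deposited columns used are 0 or 1 flags of the software. No genome build was needed for these values.

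Signs were turned so that a positive ratio means higher after ETO2 siRNA. Mean signals were corrected by normexp (offset 50) in limma 3.58.1 (R 4.3.3) with local median background and normalized by loess, control spots (1639 of 45018) having weight 0. Outlier spots (10 and 4) were left out and the spots of a probe averaged. Of 41174 probes, 24471 (59.4%) were well above background in at least 1 channel on both arrays and were tested against 0 (lmFit, eBayes, two-sided). P-values were adjusted over all of them after Benjamini and Hochberg, with 0.05 as the threshold. A gene was its brightest kept probe. Each probe had 1 residual degree of freedom and 14.6 prior ones (prior SD 0.0928), so p-values rest on the shared variance. Intervals are limma's 95%. Gene names came from the RefSeq table of GRCm38.p6 (24375 probes by accession, 6301 by symbol, 2426 by synonym) or the array file (8072). The steps were tested on simulated data in which the dye shift was the same for all probes. Without a trend of the shift with brightness, that test cannot decide between loess and median centring.

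The named genes are all probes of the 7 members, Cbfa2t3, and from each list up to 3 genes past the threshold with the largest change in each direction. Other genes that did not pass are named where a member's known partner or target. The members and the gene lists were chosen with earlier results of these data known. Alternatives were median centring, processed signals, the deposited ratio, offsets 0 and 20, Aquantile, other filters, saturated probes left out, all probes of a gene averaged, and each array alone.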

Additional observations from a re-analysis of the deposited data

How the results depend on the processing

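Counts of calls among the 7 genes depended on the normalization. The 7 higher and 1 lower probes became 4 and 8 under median centring, where 63.1% of all tested probes were lower and 3.02% higher and the median was -0.28, and 4 and 0 with the processed signals or the deposited ratio, where 5.32% and 5.01% of all probes were called. By gene, 4 higher and 1 lower became 2 and 5 under median centring and 2 and 0 with the processed signals or the deposited ratio, and 0 were lower when the probes of a gene were averaged. Under median centring Klf1 (-0.39), Nfe2 (-0.27), Bcl11a A_51_P262998 (-0.34), Klf3 A_51_P492640 (-0.36) and Zbtb7a A_52_P613808 (-0.12) had the opposite sign of the reported value. The part of each processing step in this was not tested, beyond the trend with brightness that loess removes. Offset 20 and the filters changed no member call except that of Zbtb7a A_52_P801875, which passed with offset 20 and without the filter. Aquantile leaves log ratios as they are, and no member probe is saturated, so these settings do not test the members. With array 1 or array 2 alone, for which no test can be made, all 8 called probes kept their sign, with Klf1 at 0.19 and 0.31. The reported test of ratios within arrays is itself the paired analysis. Dim spots limit Sox6, whose tested probes gave 76.6 to 110 scanner units over backgrounds of 44 to 48.5.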
